A study of Rattus norvegicus with 9 samples.

Results

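ERK feedback was followed through 10 genes that were read in mesenchymal stem cells from 3 fat depots of the rat: the phosphatase genes Dusp4, Dusp5, and Dusp6, the Sprouty genes Spry1, Spry2, and Spry4, the Spred genes Spred1 and Spred2, and the transcription factor genes Etv4 and Etv5. They were chosen by name as inhibitors and transcriptional targets of the pathway, and all 10 were found among the 35362 genes of the deposited table. The cells were adipose-derived mesenchymal stem cells from inguinal subcutaneous fat (SASCs), perirenal fat (PASCs), and epididymal fat (EASCs). All donors were untreated male Sprague Dawley rats, 6 weeks old, and all cells were grown in medium with fetal bovine serum and harvested at passage 3. RNA was sequenced in 9 samples, 3 in each group. The methods count culture wells as replicates, 6 in each group, while 3 samples per group are present. All sample titles share a prefix whose meaning is not stated, and no label ties a sample to a named rat. The p-values therefore measure the spread between these samples, which may be technical.

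The ERK pathway carries signals of growth factors from receptor tyrosine kinases through Ras, Raf, and MEK to the kinases ERK1 and ERK2. Active ERK induces genes that damp the same pathway: DUSP phosphatases remove the activating phosphates from MAP kinases, and Sprouty and Spred proteins act upstream, between the receptor and Raf. ETV4 and ETV5 are ETS transcription factors of the PEA3 group whose genes are switched on by FGF and ERK signaling. RNA levels of such genes are often used as a readout of the pathway, but phosphorylated ERK itself was not measured here.

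Promoter sequences were matched for 8 of the 10 genes, all except Dusp4 and Etv4, in RefSeq on the assembly GRCr8, with 250 bases before and 50 bases after each annotated start (Spry2 has 2 starts, so 9 promoters in all). They were searched on both strands for the CArG box, the element bound by serum response factor (CC, a run of A and T, then GG), for the ETS core CCGGAA, for the CRE TGACGTCA, and for the AP-1 site TGANTCA. The Dusp5 promoter is printed because it held 2 CArG boxes side by side, CCATATTTGG at -82 to -73 and CCTTATATGG at -72 to -63 from the start, which are in capitals. It lies on the plus strand at chr1:262543524-262543823.

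Dusp5: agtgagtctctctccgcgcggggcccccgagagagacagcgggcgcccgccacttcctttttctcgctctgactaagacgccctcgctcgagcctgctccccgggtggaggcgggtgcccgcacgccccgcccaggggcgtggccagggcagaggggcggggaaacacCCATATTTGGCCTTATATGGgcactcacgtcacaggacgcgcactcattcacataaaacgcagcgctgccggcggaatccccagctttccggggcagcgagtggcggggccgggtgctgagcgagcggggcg

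The CArG box occurred in 548 of 33469 rat promoters of the same length (1.64%), and only 7 of them (0.0209%) held 2 or more. Among the 10 genes, no other promoter that could be searched held the letters of a CArG box, and the letters of the CRE and of the AP-1 site were found in none of the 9 promoters (1.83% and 7.33% of all promoters). CCGGAA was found in 3 promoters, once in each, against 15.0% of all promoters. It stood at 4 to 9 after the start of Dusp5, at -81 to -76 of Spry4, and at -171 to -166 of the first Spry2 promoter, on the minus strand at chr15:89111877-89112176. The Spry2 promoter is printed as one with an ETS core and no CArG box, with the core in capitals.

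Spry2: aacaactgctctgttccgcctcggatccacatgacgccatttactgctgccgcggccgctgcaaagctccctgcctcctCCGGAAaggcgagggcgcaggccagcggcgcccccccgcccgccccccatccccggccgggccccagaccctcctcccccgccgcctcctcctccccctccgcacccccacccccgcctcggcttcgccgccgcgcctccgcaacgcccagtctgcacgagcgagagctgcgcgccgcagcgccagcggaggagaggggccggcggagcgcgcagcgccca

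A match of letters is a description of the sequence and shows no binding.

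Total counts ranged from 17591916 to 30299032 per sample. The share of counts on ribosomal RNA genes was 10.4% to 15.5% among SASCs samples, 22.4% to 32.9% among PASCs samples, and 15.9% to 40.3% among EASCs samples. Counts of Rn45s nearly equaled those of Rn18s and Rn28s together in every sample (in EASCs 3, 6064866 beside 3242728 and 2818595). The same reads were thus probably counted under more than 1 gene, which would make these shares and the total counts too high. Levels are therefore given as CPM, counts relative to a library size scaled by TMM, which is little affected by a few abundant genes. A level of 3 counts corresponded to 0.104 to 0.159 CPM, and this limit covers counting error only. All 10 genes passed the filter on low counts, and the lowest count of any of them was 38, for Dusp4 in a SASCs sample. All 10 markers of mesenchymal stem cells were detected, with a summed level of 20671 to 21989 CPM across SASCs, 30627 to 36672 CPM across PASCs, and 31691 to 34874 CPM across EASCs. Collagen genes made up most of that sum, and its members did not all move alike: Pdgfra fell from 1517 to 1585 CPM in SASCs to 266.5 to 298 CPM in PASCs and 226.5 to 243 CPM in EASCs, and Thy1 was lower in EASCs (log2 fold change -0.43, adjusted p = 6.17e-08) but higher in PASCs (0.51, adjusted p = 2.17e-09) than in SASCs.

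A trio of the genes stood apart from the rest. Etv4 and Dusp4 were lowest in SASCs, intermediate in PASCs, and highest in EASCs, and Dusp5 ran in the opposite order. In EASCs compared with SASCs, 2 of the 10 genes were upregulated past a fold change of 2 at an adjusted p-value under 0.05 (13.6% of the 14770 genes tested) and 1 was downregulated (14.2%). Without a limit on the fold change, 5 were higher (35.5% of genes tested) and 3 were lower (34.3%), and Spry2 and Spred2 did not pass the test. In PASCs compared with SASCs, 2 of 10 were upregulated past a fold change of 2 (12.0%) and 1 was downregulated (14.9%), while at any fold 3 were higher (34.6%) and 6 lower (34.6%). Etv5 did not pass the test in this comparison. Whether these shares differ from those of all genes was not tested. The median log2 fold change of the 10 genes was 0.19 in EASCs and -0.37 in PASCs relative to SASCs, beside 0.01 and -0.01 over all genes tested. Samples of the groups compared did not overlap for 5 genes that were higher and 3 that were lower in EASCs (36.3% and 35.8% of genes tested) and for 3 that were higher and 6 that were lower in PASCs (35.7% and 36.0%).

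EASCs were then compared with PASCs. Dusp4 and Etv4, 2 of the 10 genes, were upregulated in EASCs past a fold change of 2 (5.19% of genes tested), and 0 were downregulated by edgeR or by DESeq2 (2.20%). At any fold 6 were higher (16.1%) and 1 was lower (14.5%), and the median log2 fold change of the 10 genes was 0.35 beside -0.01 over all genes. The gene that was lower was Dusp5, whose log2 fold change of -0.46 was the lowest of the 10, so that 0 were past 2-fold at an unadjusted p-value under 0.05 as well. Samples did not overlap for 7 genes that were higher and 1 that was lower (21.1% and 20.1%). The 3 comparisons share samples, so they are not independent of each other.

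The scaling moved the small differences. Total counts include the ribosomal RNA genes, whose reads were probably counted more than once. When counts were scaled by total counts without TMM, the median of all genes moved to -0.39 in EASCs and -0.33 in PASCs relative to SASCs, and the upregulated share of all calls past 2-fold went from 48.8% to 28.3% in EASCs and from 44.7% to 28.5% in PASCs. The genes Spry1, Spry2, and Etv5 changed sign with it, in the comparisons named for each gene, but relative to the moved median they kept their sign in the comparisons with SASCs.

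**Figure D1:**
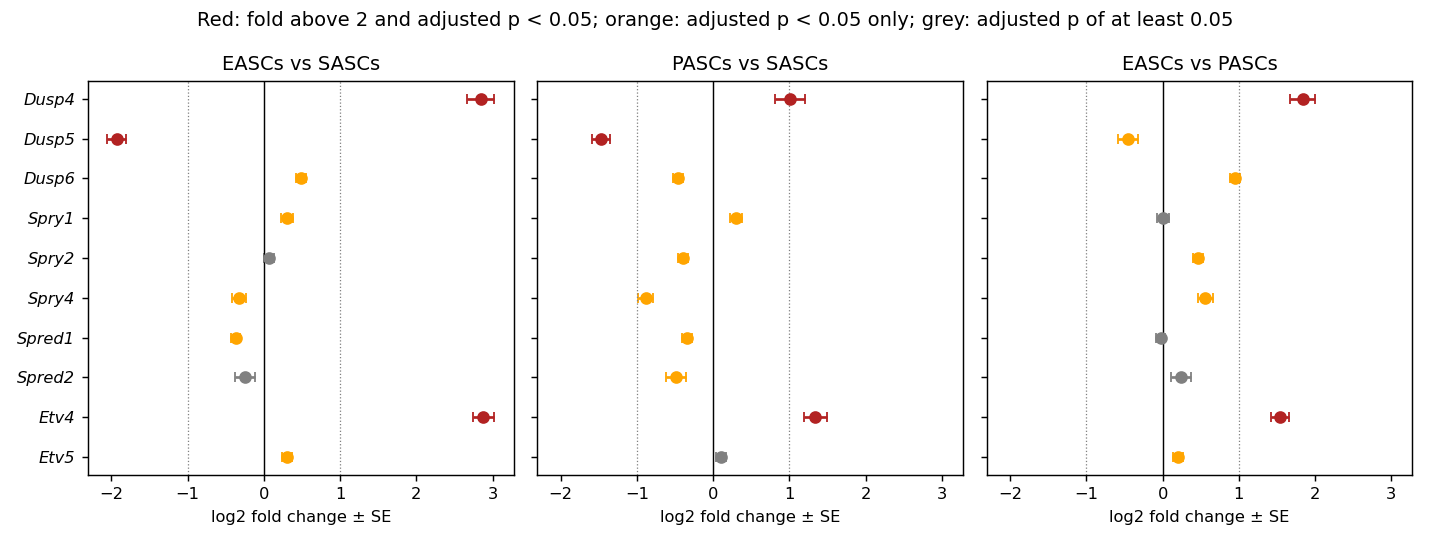
Log2 fold change (x axis, points, with the standard error as bars) of each of the 10 genes (y axis) in the 3 comparisons; dotted lines mark a fold change of 2. Dusp4 and Etv4 lie to the right of the upper line in every panel, Dusp5 lies to the left of the lower line in both comparisons with SASCs, and the other genes lie between the lines; scaled by total counts, Dusp4 and Etv4 in PASCs compared with SASCs were 0.67 and 0.995.

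DUSP4, DUSP5, and DUSP6 are MAP kinase phosphatases that act on ERK, DUSP4 and DUSP5 in the nucleus and DUSP6 in the cytoplasm. Dusp4 (chr16:61080767-61090973 on rn6, minus strand) was at 2.16, 3.99, and 1.85 CPM in the SASCs samples, at 6.12, 5.20, and 4.71 CPM in PASCs, and at 17.0, 19.4, and 21.3 CPM in EASCs. The 3 groups did not overlap, and every EASCs sample was above every PASCs sample. Dusp4 was 7.18-fold higher in EASCs than in SASCs (log2 fold change 2.84, SE 0.18, edgeR adjusted p = 5.76e-14) and 3.57-fold higher in EASCs than in PASCs (log2 fold change 1.84, SE 0.16, adjusted p = 4.71e-10). The difference between PASCs and SASCs was 2.01-fold (log2 fold change 1.01, SE 0.20, adjusted p = 5.96e-05) and stood at the fold threshold. It passed the p-value threshold in all 19 alternative settings, but the fold threshold in only 12 of them. Its log2 value was 0.85, 0.83, and 0.90 without SASCs 1, SASCs 3, and PASCs 1, and 1.41 without SASCs 2.

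Dusp5 (chr1:274245184-274258595, plus strand) was the gene with the CArG boxes printed above. It was at 21.0, 22.5, and 19.4 CPM in SASCs, at 7.84, 7.03, and 7.89 CPM in PASCs, and at 4.52, 5.76, and 6.26 CPM in EASCs. No PASCs or EASCs sample came near the lowest SASCs sample. Dusp5 was 3.81-fold lower in EASCs than in SASCs (log2 fold change -1.93, SE 0.12, adjusted p = 6.52e-14) and 2.77-fold lower in PASCs than in SASCs (log2 fold change -1.47, SE 0.12, adjusted p = 9.70e-12). The groups PASCs and EASCs also did not overlap, but the difference between them was smaller (log2 fold change -0.46, SE 0.13, adjusted p = 0.00833) and rested on EASCs 1, without which it was -0.33 (adjusted p = 0.0716).

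Dusp6, the most abundant of the 3 phosphatase genes per length in every group, followed neither order. Its level was 51.6, 52.1, and 46.8 CPM in SASCs, 34.2, 36.2, and 38.98 CPM in PASCs, and 66.8, 70.3, and 73.9 CPM in EASCs, so that PASCs were lowest and EASCs highest without overlap. EASCs were above SASCs by a log2 fold change of 0.49 (SE 0.07, adjusted p = 3.23e-07) and above PASCs by 0.95 (SE 0.07, adjusted p = 8.12e-12), and PASCs were below SASCs (-0.46, SE 0.07, adjusted p = 1.21e-06). Scaled by total counts, the difference between EASCs and SASCs was 0.09 (adjusted p = 0.654), while the other differences of Dusp6 passed the test in all 19 settings.

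**Figure D2:**
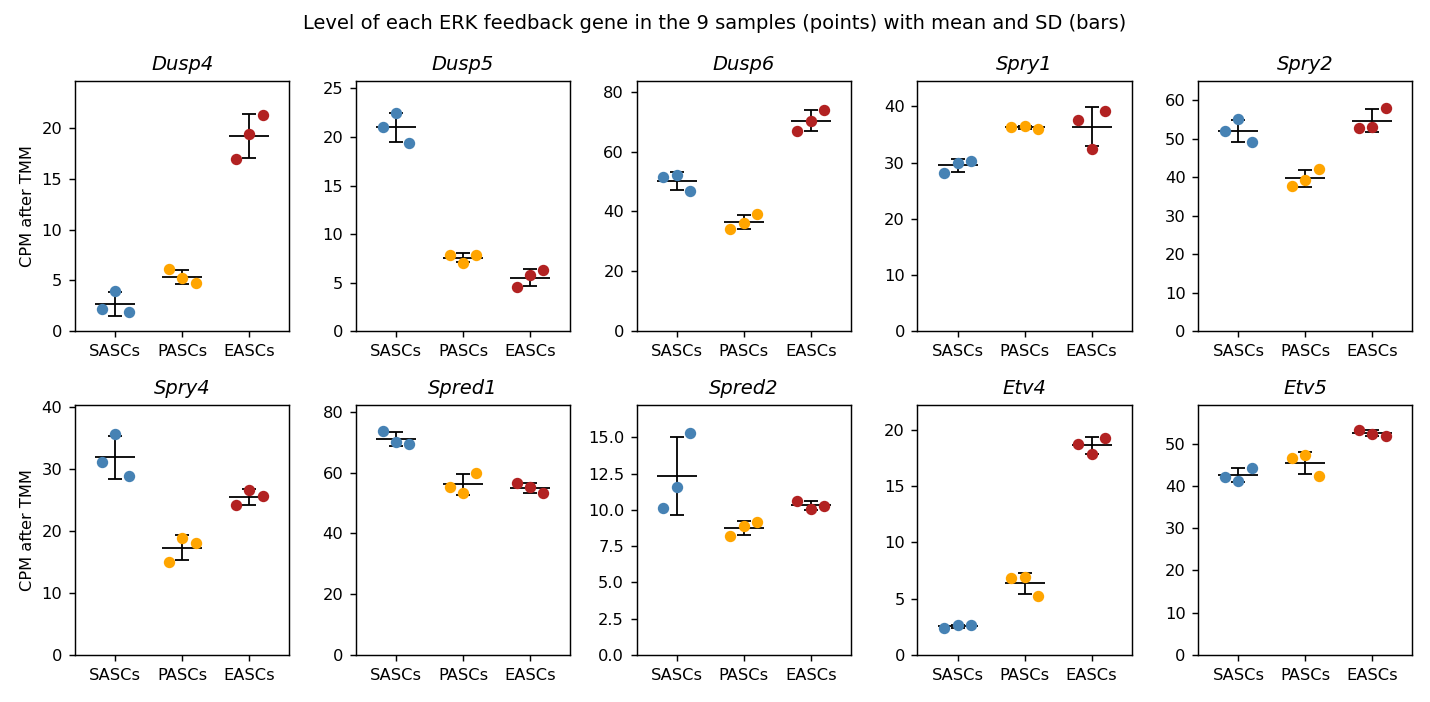
Level of each of the 10 genes in CPM after TMM (y axis, from 0) in the 3 samples of each group (points), with the mean (long line) and SD (bars). Dusp4 rises from 1.85 to 3.99 CPM in SASCs to 17.0 to 21.3 CPM in EASCs, Etv4 goes the same way, Dusp5 goes from 19.4 to 22.5 CPM down to 4.52 to 6.26 CPM, and Dusp6, Spry2, Spry4, and Spred2 are lowest in PASCs.

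Etv4 (chr10:89685058-89700314, minus strand) was, with Dusp4, one of the genes that were upregulated in every comparison. It was at 2.36, 2.63, and 2.64 CPM in SASCs, at 6.85, 6.95, and 5.24 CPM in PASCs, and at 18.8, 17.8, and 19.3 CPM in EASCs. The 3 groups did not overlap. Etv4 was 7.34-fold higher in EASCs than in SASCs (log2 fold change 2.88, SE 0.14, adjusted p = 1.60e-16), 2.53-fold higher in PASCs than in SASCs (log2 fold change 1.34, SE 0.15, adjusted p = 9.58e-09), and 2.91-fold higher in EASCs than in PASCs (log2 fold change 1.54, SE 0.12, adjusted p = 5.41e-11). By total counts the difference between PASCs and SASCs was just under 2-fold (log2 fold change 0.995, adjusted p = 1.79e-05). Of the 14770 genes tested, 404 had a higher log2 fold change than Etv4 in EASCs compared with SASCs, and 418 had a higher one than Dusp4.

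Its relative Etv5 moved little. Etv5 ranged from 41.2 to 44.4 CPM in SASCs, from 42.4 to 47.3 CPM in PASCs, and from 51.9 to 53.3 CPM in EASCs. The log2 fold change was 0.30 in EASCs compared with SASCs (SE 0.06, adjusted p = 1.74e-04) and turned to -0.09 (adjusted p = 0.647) when scaled by total counts. SASCs and PASCs overlapped (log2 fold change 0.10, adjusted p = 0.189, and -0.23 by total counts). EASCs were above PASCs without overlap by 0.21 (adjusted p = 0.0154), but this did not pass the test without PASCs 3 (0.16, adjusted p = 0.0803) or by total counts (0.14, adjusted p = 0.676).

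The order of Dusp4 and Etv4 over the groups was also that of several marker lists of other cell types. Of 8 leukocyte markers, 7 were in the table, and their summed level was 49.3 to 54.9 CPM across SASCs, 121 to 127 CPM across PASCs, and 176 to 189 CPM across EASCs. All 7 were higher at any fold in EASCs and in PASCs than in SASCs (35.5% and 34.6% of genes tested). Ptprc, the pan-leukocyte marker, ranged from 0.765 to 1.27 CPM in SASCs and from 2.84 to 3.22 CPM in EASCs. The 6 smooth muscle markers summed to 162 to 174 CPM across SASCs, 2841 to 3138 CPM across PASCs, and 6437 to 6802 CPM across EASCs. All 6 were higher past 2-fold in EASCs and in PASCs than in SASCs (13.6% and 12.0% of genes tested). The 8 mesothelial markers summed to 20.01 to 21.4 CPM, 98.3 to 106 CPM, and 132 to 143 CPM, with Krt18 at 0 in SASCs and Krt19 at 0 in PASCs. Wt1, Msln, and Lrrn4 made up most of that sum, and Upk1b went the other way between the visceral groups (log2 fold change -0.97 in EASCs relative to PASCs, adjusted p = 0.00317).

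Some other markers ran in the order of Dusp5. S100b, a gene of Schwann cells, ranged from 27.7 to 31.2 CPM across SASCs, from 6.50 to 7.36 CPM across PASCs, and from 1.34 to 1.70 CPM across EASCs, while Sox10, the defining transcription factor of that lineage, was at most 0.112 CPM in any sample. The 6 adipocyte markers summed to 145 to 158 CPM across SASCs, 38.6 to 44.9 CPM across PASCs, and 21.6 to 22.4 CPM across EASCs. All 5 that were tested were lower past 2-fold in EASCs and in PASCs than in SASCs (14.2% and 14.9% of genes tested). The summed level of the 6 endothelial markers was lowest in PASCs, the group in which Dusp6, Spry2, Spry4, and Spred2 were lowest, although Tek alone among the 6 was higher past 2-fold in PASCs than in SASCs. The sums in SASCs, PASCs, and EASCs were 44.3 to 46.0 CPM, 11.7 to 14.6 CPM, and 30.5 to 33.1 CPM. Markers of epididymal epithelium summed to at most 1.13 CPM and those of skeletal muscle to at most 0.765 CPM in any sample. The part of these cell types, and of the share of ribosomal RNA, in the differences of the 10 genes was not tested. With ribosomal RNA genes left out of the counts, 2 of the 10 genes were upregulated and 1 was downregulated in EASCs compared with SASCs. These calls past 2-fold were as many as with them, beside 2032 and 2047 of 14724 genes tested. In such bulk samples, fewer cells of a type and less RNA per cell cannot be told apart.

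Sprouty proteins are inhibitors of receptor tyrosine kinase signaling that are themselves induced by it. Spry4 had the largest range of the 3 Sprouty genes. It was at 31.1, 35.6, and 28.8 CPM in SASCs, at 15.0, 18.8, and 18.0 CPM in PASCs, and at 24.1, 26.5, and 25.7 CPM in EASCs. The groups did not overlap, with PASCs lowest and SASCs highest. Spry4 was lower in PASCs than in SASCs by a log2 fold change of -0.89 (SE 0.09, adjusted p = 3.24e-09), lower in EASCs than in SASCs by -0.33 (SE 0.09, adjusted p = 0.00244), and higher in EASCs than in PASCs by 0.56 (SE 0.10, adjusted p = 3.55e-05). Spry4 lies over Nr3c1 on the other strand in the table, and whether strand was used in counting is not stated in the sources used here, so that reads of one could be counted for the other. The table has Spry4 on the plus strand and the GRCr8 promoter set has it on the minus strand, so its strand relative to Nr3c1 is uncertain.

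Spry2 was also lowest in PASCs. It ranged from 49.3 to 55.1 CPM in SASCs, from 37.8 to 42.1 CPM in PASCs, and from 52.8 to 58.1 CPM in EASCs, where the samples overlapped those of SASCs. PASCs were lower than SASCs (log2 fold change -0.39, SE 0.07, adjusted p = 1.17e-05) and lower than EASCs (0.46 in EASCs relative to PASCs, SE 0.07, adjusted p = 4.50e-06), and by total counts the latter did not pass the test (0.38, adjusted p = 0.108). Between EASCs and SASCs the log2 fold change was 0.07 (adjusted p = 0.362), and -0.33 by total counts (adjusted p = 0.0649). The table gives Mycbp2 a span that covers Spry2 on the same strand, and how reads shared by the pair were counted is not stated.

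Spry1 was lowest in SASCs, unlike Spry2 and Spry4. It ranged from 28.2 to 30.4 CPM in SASCs, from 36.0 to 36.5 CPM in PASCs, and from 32.5 to 39.2 CPM in EASCs. Both visceral groups were above SASCs without overlap, by 0.30 for EASCs (log2 fold change, SE 0.08, adjusted p = 9.29e-04) and 0.30 for PASCs (SE 0.08, adjusted p = 0.00101), and by total counts the sign turned, to -0.11 and -0.03, which is 0.28 and 0.31 above the median of all genes in that scaling. EASCs and PASCs overlapped (log2 fold change 0.00, SE 0.07, adjusted p = 0.986).

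Spred proteins carry an EVH1 domain, bind Ras regulators such as neurofibromin, and restrain the activation of Raf. Spred1 ranged from 69.5 to 73.8 CPM in SASCs, from 53.3 to 59.9 CPM in PASCs, and from 53.3 to 56.5 CPM in EASCs. Every visceral sample was below every SASCs sample, with -0.37 for EASCs (log2 fold change, SE 0.06, adjusted p = 6.68e-06) and -0.34 for PASCs (SE 0.06, adjusted p = 1.90e-05), while EASCs and PASCs overlapped (log2 fold change -0.03, adjusted p = 0.792). An overlapping pseudogene on the other strand of Spred1 held 117 counts over the 9 samples, beside 13097 for Spred1.

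Spred2 varied most among the SASCs samples, at 10.1, 11.6, and 15.3 CPM. It was at 8.19, 8.86, and 9.16 CPM in PASCs and at 10.6, 10.1, and 10.2 CPM in EASCs. PASCs were lower than SASCs without overlap (log2 fold change -0.49, SE 0.13, adjusted p = 0.00159). The difference between EASCs and SASCs was -0.25 (SE 0.13, adjusted p = 0.0847) with overlapping samples, and it rested on single SASCs samples: it was -0.38 without SASCs 1 (adjusted p = 0.0130) and -0.07 without SASCs 3 (adjusted p = 0.626). By total counts it was -0.65 (adjusted p = 0.00125). EASCs lay above PASCs in all samples, by 0.24 (SE 0.13, adjusted p = 0.180).

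Levels of different genes were compared per length, as FPKM, the CPM divided by the length in kilobases that the table gives for each gene. Spry1, Dusp6, and Spry2 were the highest 3 of the 10 genes in every group, led by Spry1 at 28.7 ± 1.15 FPKM (SD, n = 3) in SASCs, 35.3 ± 0.25 in PASCs, and 35.4 ± 3.40 in EASCs. Etv4 was the lowest gene in SASCs (0.979 ± 0.060 FPKM) and PASCs (2.44 ± 0.37 FPKM), and Dusp5 was the lowest in EASCs (2.28 ± 0.37 FPKM). Dusp4 moved from rank 9 in SASCs to 7 in PASCs and 4 in EASCs, and Dusp5 from rank 7 to 8 and 10.

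Neighbors in this order often overlapped. In SASCs the ranges of Dusp6 and Spry2 overlapped, as did those of Etv5, Spred2, Spred1, and Dusp5, each with the next. In PASCs, overlap was seen between Dusp6 and Spry2, Spred1 and Spred2, Dusp5 and Spry4, and Spry4 and Etv4. In EASCs, Spry2 overlapped Dusp4 and Spred1 overlapped Etv4, and the other 7 neighboring pairs were apart. The lengths of Dusp4 (1188 bases) and Spred2 (1203 bases) are short and divide by 3, as a coding sequence alone would, though so do the longer lengths of Spry2, Spry4, and Etv4, and Spry1, which leads the order, has the shortest length of the 10 genes (1028 bases). A longer transcript would place these genes lower. By CPM, with no length used, the mean of Spry1 was below those of Dusp6 and Spry2 in every group.

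**Figure D3:**
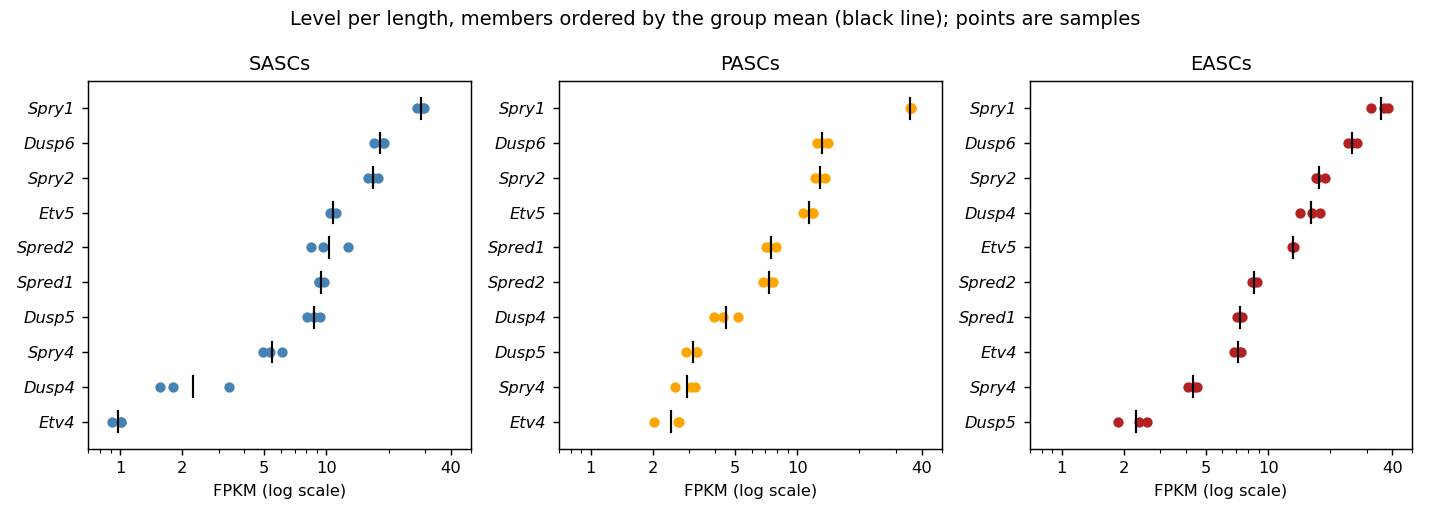
FPKM (x axis, log scale) of the 10 genes, ordered from top to bottom by their group mean (black line), with 1 panel per group and 1 point per sample. Spry1, Dusp6, and Spry2 lead in every panel; Dusp4 climbs from rank 9 to rank 4 between SASCs and EASCs, and Dusp5 drops from rank 7 to rank 10.

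Within each sample, the phosphatase genes changed places. The ratio of Dusp4 to Dusp5 per length was 0.209, 0.361, and 0.194 in the SASCs samples, 1.59, 1.51, and 1.22 in PASCs, and 7.64, 6.85, and 6.92 in EASCs. Dusp5 was above Dusp4 in all SASCs samples and below it in all EASCs samples, by counts as well as per length. In PASCs the order rested on the length given for Dusp4, since Dusp4 had 160, 139, and 89 counts and Dusp5 had 205, 188, and 149. Dusp4 made up 7.57% ± 2.66 (SD, n = 3) of the summed FPKM of the 3 phosphatase genes in SASCs, 21.6% ± 3.1 in PASCs, and 36.7% ± 1.27 in EASCs, and Dusp5 made up 29.8% ± 0.39, 15.0% ± 0.71, and 5.16% ± 0.46. Dusp6 held the largest share throughout, 62.6% ± 2.36, 63.4% ± 3.37, and 58.1% ± 1.72. The sum itself was 29.1 ± 2.5 FPKM in SASCs, 20.9 ± 0.48 in PASCs, and 44.0 ± 3.48 in EASCs.

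The ETS genes shifted as well. The ratio of Etv4 to Etv5 was 0.0858, 0.0977, and 0.0909 in the SASCs samples, 0.225, 0.225, and 0.189 in the PASCs samples, and 0.539, 0.522, and 0.568 in the EASCs samples, so that Etv5 stayed above Etv4 in all 9 samples. The summed FPKM of Spry1, Spry2, and Spry4 varied less, at 51.0 ± 1.87 in SASCs, 51.1 ± 0.86 in PASCs, and 57.4 ± 3.99 in EASCs, with Spry1 at 56.4%, 69.1%, and 61.6% of it. A ratio within a sample does not depend on the scaling of that sample. These ratios were chosen after the values had been seen and are descriptions. With 3 samples against 3, a two-sided exact permutation test cannot go below p = 0.1, and it gave p = 0.1 for both ratios in each comparison.

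**Figure D4:**
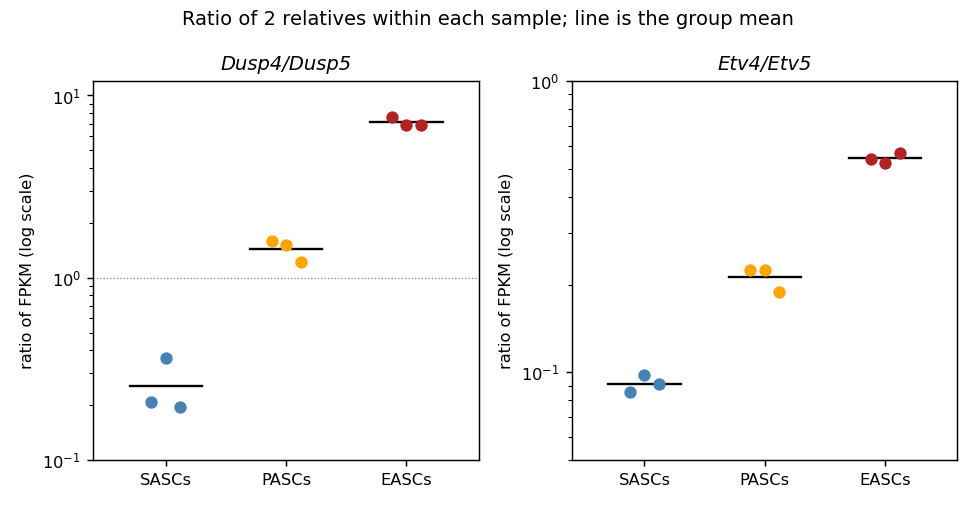
Ratio of Dusp4 to Dusp5 (left) and of Etv4 to Etv5 (right) in FPKM within each sample (points, log scale), with the group mean as a line and a ratio of 1 dotted on the left. The ratio of Dusp4 to Dusp5 lies below 1 in SASCs and above 1 in EASCs, and in PASCs it lies above 1 only with the short length given for Dusp4 (160, 139, and 89 counts against 205, 188, and 149 for Dusp5); the ratio of Etv4 to Etv5 rises from at most 0.0977 in SASCs to at least 0.522 in EASCs.

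The remainder of the pathway was described with 7 lists of 114 other genes, of which 105 were tested. In EASCs compared with SASCs 20 were upregulated and 19 downregulated past 2-fold (13.6% and 14.2% of all genes tested), and in PASCs compared with SASCs 15 and 20 (12.0% and 14.9% of all genes tested), with medians of -0.05 and -0.12. At the top, 10 ligands of the EGF and FGF families were tested. In EASCs 6 were upregulated and 3 downregulated, and in PASCs 5 and 2. Fgf18 rose most in EASCs, from 0.278 to 0.594 CPM in SASCs to 8.11 to 9.08 CPM (log2 fold change 4.24, adjusted p = 1.10e-14), and Nrg1, an ERBB ligand, rose most in PASCs (log2 fold change 2.98, adjusted p = 5.27e-13). Fgf10, a ligand of FGFR2, fell most in both, from 48.5 to 50.5 CPM in SASCs to 10.8 to 11.6 CPM in EASCs and 7.25 to 7.92 CPM in PASCs.

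Of 15 receptor tyrosine kinase genes tested, 1 was upregulated and 5 were downregulated past 2-fold in EASCs, and 1 and 6 in PASCs. Fgfr3 was the one that rose (log2 values of 1.36 and 1.28 in EASCs and PASCs, adjusted p = 7.48e-09 and 2.31e-08). Ret, the receptor of GDNF family ligands, ranged from 32.2 to 36.4 CPM in SASCs and fell most, to 0.268 to 0.477 CPM in PASCs (adjusted p = 6.35e-22) and 0.0837 to 0.243 CPM in EASCs (adjusted p = 2.28e-22), near the level of 3 counts. Of 19 adaptors and Ras regulators, 2 rose and 1 fell in EASCs and 1 rose and 2 fell in PASCs. Rasa3, a GTPase-activating protein of Ras, fell most in both (log2 values of -2.32 and -2.72, adjusted p = 8.87e-20 and 5.39e-21). The Ras exchange factor Rasgrp2 rose most in EASCs (1.99, adjusted p = 1.68e-09), and Rasgrp1 rose most in PASCs, from 0.0424 to 0.586 CPM to 0.727 to 2.13 CPM (adjusted p = 5.47e-04).

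The core of the cascade passes the signal from Ras to ERK. Of 17 genes of Ras, Raf, MEK, ERK, and their scaffolds, 3 were upregulated and 1 downregulated past 2-fold in EASCs, and 1 and 1 in PASCs. Between EASCs and PASCs, 2 of the 17 were higher and 1 was lower at any fold (16.1% and 14.5% of all genes tested). The scaffold gene Iqgap1 rose most (log2 values of 1.41 and 1.34 in EASCs and PASCs, adjusted p = 1.32e-17 and 4.07e-17), and Ksr1, the scaffold of Raf, MEK, and ERK, fell (-1.24 and -1.60, adjusted p = 9.03e-11 and 8.29e-13).

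Of 9 other MAP kinase phosphatase genes, 3 rose and 1 fell past 2-fold in each comparison with SASCs. Dusp8, which prefers JNK and p38, was at 0.243 to 0.488 CPM in SASCs and rose most, by a log2 value of 3.13 for EASCs and 2.70 for PASCs (adjusted p = 2.07e-08 and 4.19e-07). Dusp10, another phosphatase of JNK and p38, fell from 17.8 to 21.0 CPM in SASCs through 5.72 to 6.50 CPM in PASCs down to 3.08 to 4.29 CPM in EASCs, the order of groups seen for Dusp5. Of 11 other inhibitors, 1 rose and 2 fell in EASCs and 1 rose and 1 fell in PASCs. Errfi1, the feedback inhibitor of EGFR also known as MIG6, fell from 485 to 525 CPM in SASCs to 105 to 119 CPM in EASCs (log2 fold change -2.16, adjusted p = 1.10e-21) and 74.9 to 85.0 CPM in PASCs (-2.64, adjusted p = 2.71e-23). Pea15, which holds ERK in the cytoplasm, rose (1.44 and 1.53, adjusted p = 1.22e-18 and 3.12e-19).

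Other transcriptional targets of ERK also moved in both directions. Of 24, 4 were upregulated and 6 downregulated past 2-fold in EASCs, and 3 and 7 in PASCs, with medians of -0.44 and -0.51. Epha2, an ephrin receptor, rose most in EASCs, from 3.27 to 4.07 CPM in SASCs through 11.7 to 12.5 CPM in PASCs up to 24.4 to 26.1 CPM in EASCs, the order of Dusp4 and Etv4. Hmga1, a chromatin protein, rose most in PASCs (log2 fold change 2.19, adjusted p = 6.84e-22). The immediate early gene Egr1 fell most in EASCs, from 357 to 418 CPM in SASCs to 30.1 to 33.6 CPM (log2 fold change -3.63, adjusted p = 1.45e-25), and Egr2 fell most in PASCs, from 29.1 to 34.3 CPM to 2.02 to 2.37 CPM (-3.87, adjusted p = 4.80e-18).

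The promoters of Egr1 and Egr2 also held CArG boxes, like that of Dusp5. They are CCATATTAGG at -105 to -96 and CCATATATGG at -83 to -74 in Egr1, and CCATATATGG at -83 to -74 in Egr2. Over the 24 targets this search is void, because promoters were matched for only 15 of them; 3 of the 15 held the box, the other one being Etv1. The log2 fold changes of Etv1 were -0.66 in EASCs and -1.55 in PASCs. Searched targets without the box moved in both directions, such as Junb (-1.96 in EASCs and -1.64 in PASCs) and Hmga1 (2.16 and 2.19). The part of the box in these differences was not tested, and no statement about the list is drawn from this search.

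**Figure D5:**
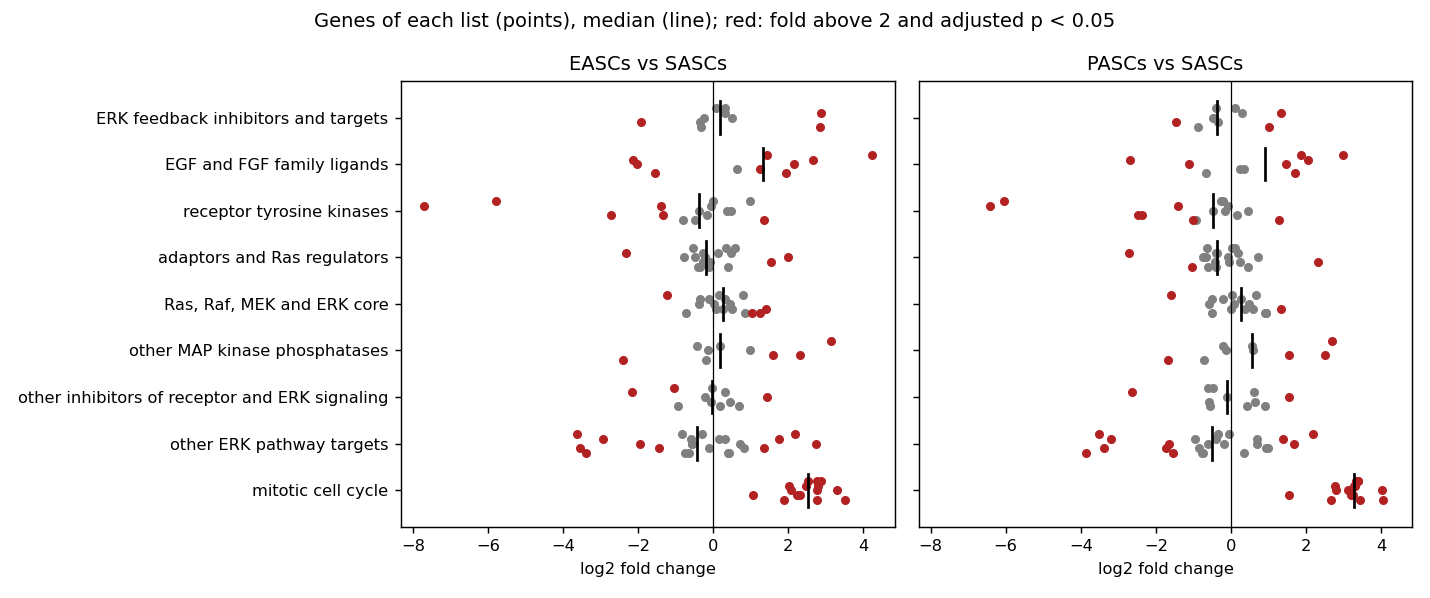
Log2 fold change (x axis) of each tested gene (points) of the 10 genes, the 7 other pathway lists, and the mitotic list (y axis), in EASCs (left) and PASCs (right) relative to SASCs; black lines are medians and red points passed a fold change of 2 and an adjusted p-value of 0.05. The pathway lists hold genes on both sides of 0, while all 15 mitotic genes lie to the right, with medians of 2.51 and 3.28.

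ERK activity is known to promote cell division, so genes of mitosis were counted beside the pathway. All 15 were upregulated past 2-fold in EASCs and in PASCs relative to SASCs (13.6% and 12.0% of all genes tested), and at any fold all 15 were lower in EASCs than in PASCs (14.5% of all genes tested, median log2 fold change -0.72). Plk1, a mitotic kinase, ranged from 3.27 to 3.96 CPM in SASCs, from 59.7 to 63.6 CPM in PASCs, and from 40.1 to 42.6 CPM in EASCs. The mitotic genes were thus highest in PASCs, where Dusp6, Spry2, Spry4, and Spred2 were lowest. They were lowest in SASCs, where Spry4 and Spred2 were highest, whereas Dusp6 and Spry2 were highest in EASCs. The rest of the 10 genes were not lowest in PASCs, and the part of cell division in the levels of the 10 genes was not tested.

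The genes most alike in pattern were found for 1 member of each family, as the smallest root mean square difference of centered log2(CPM + 0.5) over the 9 samples. For Etv4 these were Il15 (0.155), Mylk (0.160), and Nol4l (0.178), and for Dusp4 they were Ptprv (0.252), C1qa (0.255), and Tspan18 (0.258). C1qa, a complement gene of macrophages, was at 3.82 ± 1.076 CPM (SD, n = 3) in SASCs, 6.65 ± 0.19 in PASCs, and 20.6 ± 0.81 in EASCs, and Mylk, the myosin light chain kinase of smooth muscle, at 87.9 ± 2.82, 228 ± 8.24, and 630 ± 10.49 CPM. For Spry4 they were Tril (0.0926), Sh2b2 (0.118), and Prkce (0.119), and for Spred2 they were Zfp35 (0.0805), Mef2a (0.0854), and Fig4 (0.0922). These values are descriptions over samples that share the 3 groups.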

How the data were processed

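RNA-seq of SASCs, PASCs, and EASCs (3 samples each, grouped by their titles) was used. Per the methods, the authors trimmed paired-end reads with cutadapt and FastX-Toolkit and aligned them with TopHat to rn6; the submitters' processing notes name TopHat2 and rn5, but gene ends in the table (145705899 on chromosome 7) lie past the end of that chromosome in rn5, so coordinates are given as rn6. The authors deposited whole-number counts per gene, not normalized. The counting tool and its use of strand are not given in the sources used here.

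Counts were tested with edgeR 4.0.16 in R 4.3.3: TMM scaling (factors 0.740 to 1.23), filterByExpr (14770 genes), 1 quasi-likelihood model of the 3 groups over all 9 samples, and Benjamini-Hochberg adjustment over all genes tested. Up- and downregulated genes were those past a fold change of 2 with adjusted p-values below 0.05, and those past the p-value alone were counted beside them. FPKM were computed from TMM-scaled CPM and the gene lengths of the table. The common biological coefficient of variation was 0.0685.

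The 10 genes, the lists, and the tests were chosen with earlier results of these data known. Named were all 10 genes, the gene of each pathway list with the largest increase and decrease among those called in each comparison with SASCs, markers, and the 3 genes most alike in pattern to the gene of each family with the widest range. Etv1 and Junb were named after their values were seen. Alternatives were DESeq2 1.42.0, other filters and scalings, limma 3.58.1 on log2(CPM + 1) and log2(CPM + 0.1), a replicate block, other thresholds, and leaving out each sample. Promoters were from RefSeq tables on GRCr8. A further list of markers is not reported here.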

Additional observations from a re-analysis of the deposited data

How the results depend on the processing

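Over 19 alternative settings, 547 of the 570 values of single genes kept their direction and their side of the p-value threshold. In EASCs compared with SASCs, Dusp4, Etv4, and Dusp5 passed both thresholds in all 19. The count of genes upregulated in PASCs past 2-fold, 2, was 1 with DESeq2, with a filter of at least 1 CPM in every sample, and with limma on log2(CPM + 1), 0 by total counts, and 1 to 2 when a sample was left out; of all genes, 1779 of 14770 were upregulated in PASCs in the report, 1732 with DESeq2, 1043 of 11381 with the CPM filter, 1199 with limma, and 1262 by total counts. Dusp4 lay at the fold threshold, and by total counts Etv4 was just under it as well (log2 values of 0.67 for Dusp4 and 0.995 for Etv4). The count downregulated in PASCs, 1, was 2 by total counts and at a fold change of 1.5, and 6 at any fold, beside 2200, 3169, 3339, and 5111 of all 14770 genes. At any fold, 5 were higher and 3 lower in EASCs than in SASCs (35.5% and 34.3% of genes tested). In EASCs compared with PASCs, 6 were higher and 1 was lower (16.1% and 14.5%).

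By total counts, the log2 fold change turned to -0.11 for Spry1, -0.33 for Spry2, and -0.091 for Etv5 in EASCs compared with SASCs, to -0.026 for Spry1 and -0.23 for Etv5 in PASCs compared with SASCs, and to -0.082 for Spry1 between EASCs and PASCs. This scaling moved all genes alike, and relative to the median of all genes the first 5 values were 0.28, 0.06, 0.30, 0.31, and 0.10, on the same side as in the report. The last value, 0.00 in the report, was also below 0 with DESeq2 (-0.0016), with limma (-0.00056 and -0.00069 for log2(CPM + 1) and log2(CPM + 0.1)), and without PASCs 3, EASCs 1, or EASCs 3, and ranged from -0.0481 to 0.0786 when each sample was left out. Spred1 between EASCs and PASCs turned to 0.0010 with upper quartile factors and ranged from -0.0642 to 0.0221 when each sample was left out, above 0 without PASCs 3 or EASCs 3. The cause was not tested for these values near 0.

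Samples with the same replicate number did not deviate together (correlations of -0.0252 to 0.0590, none above 0.1), so the numbers were not taken to pair samples. With the replicate number as a block, 2 genes were upregulated in each comparison and 1 was downregulated in each comparison with SASCs. Between EASCs and PASCs 0 were downregulated, all as without the block. Of all 14770 genes, 1981 were then upregulated and 2080 downregulated in EASCs, and 1764 and 2180 in PASCs, relative to SASCs. Between EASCs and PASCs these counts were 748 and 319. With the block, Spry1 between EASCs and PASCs was at -0.00079. Genes near 3 counts cannot be resolved at this depth.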
